A study of Mus musculus with 6 samples.

Results

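Malat1, Neat1, Tug1, Kcnq1ot1, Miat, Gas5 and Snhg12 are 7 long non-coding RNAs (lncRNAs) studied in macrophages and other cells. They were taken by symbol from a gene count table of F4/80+ cells isolated from mouse liver tumours. Each of the 7 symbols matched 1 row of the 55401 rows in the table. The symbols alone picked the rows, but earlier results of these data were known when the 7 were chosen. Tumours were grown by injecting Hepa 1-6 cells, a mouse hepatoma line, into the right liver lobe, and F4/80+ cells were isolated on day 14. In the 3 control libraries the injected cells were controls (genotype label WT Control), and in the 3 Sms-OE libraries they carried a lentivirus that overexpresses Sms, the spermine synthase gene, which makes the polyamine spermine. No further treatment was given to either group, and the labels call the isolated cells macrophages. The manipulated gene was therefore in the tumour cells, and the measured cells are those of the host that carried F4/80 (Adgre1), a surface marker of mouse macrophages. The labels give no strain, age or sex of the mice, and nothing says that the 3 libraries of a group came from separate mice. The p-values then measure the spread between these samples, which may be technical.

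All 7 are annotated as non-coding genes, and whether any of them is translated was not tested. Malat1 lies in nuclear speckles, bodies rich in splicing factors, while Neat1 is the scaffold of paraspeckles, bodies that hold RNA-binding proteins and edited RNAs. Neat1 has been linked to inflammasome activation in macrophages. Kcnq1ot1 is transcribed antisense to Kcnq1 from the paternal chromosome and silences imprinted neighbours, together with the Polycomb complex PRC2 and the histone methyltransferase G9a. Tug1 was first named as a gene raised by taurine in the developing retina and has been reported to bind PRC2. Miat is a nuclear RNA best known from neurons and the heart. Gas5 and Snhg12 are host genes: small nucleolar RNAs (snoRNAs), which guide the modification of ribosomal RNA, are cut from their introns, and the spliced host RNA is left over.

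Malat1 and Neat1 are neighbours on chromosome 19 and share an unusual 3′ end, shown here because the counts come from libraries selected on oligo(dT) beads. Neither of these 3′ ends is made by the usual cleavage and polyadenylation. RNase P cuts the RNA before a tRNA-like fold, and 2 U-rich motifs pair with a genome-encoded A-rich tract in a triple helix that protects the end. Capitals mark the 2 U-rich motifs and the A-rich tract (written with T for U, in the RNA's own direction). The Malat1 stretch is chr19:5795982-5796075 and the Neat1 stretch chr19:5824708-5824807, both on the minus strand of GRCm38, read from GENCODE M21 transcripts.

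Malat1 3′ end: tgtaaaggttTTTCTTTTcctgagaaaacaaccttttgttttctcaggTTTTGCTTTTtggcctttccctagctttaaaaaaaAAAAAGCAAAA
Neat1 3′ end: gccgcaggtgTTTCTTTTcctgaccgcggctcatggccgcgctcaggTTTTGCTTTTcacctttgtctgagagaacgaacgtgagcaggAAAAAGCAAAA

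The 2 ends share runs of 13, 16 and 11 identical bases, which cover the marked motifs. The annotated Malat1 transcript runs on for 292 bases after its tract, and the annotated long Neat1 transcript ends with it (0 bases after). Neat1 also has a short transcript of 3004 bases, which shares its 5′ part with the long form of 20771 bases and ends with an ordinary poly(A) tail. Its last 60 bases, chr19:5842307-5842366 on the minus strand, hold the polyadenylation signal, in capitals, 14 bases before the end.

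Neat1 short form, last 60 bases: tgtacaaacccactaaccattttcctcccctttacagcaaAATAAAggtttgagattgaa

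The count table has 1 row for the whole Neat1 gene, so the short and the long form could not be told apart. How much of a Malat1 or long Neat1 RNA was held by the oligo(dT) beads was not tested.

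The deposited values are estimated counts, and the libraries held 49833764 to 58154006 of them. Levels are given as CPM (counts scaled to a common library total) after TMM scaling, a correction for library composition. Macrophage markers (Adgre1, Csf1r, Cd68 and 5 more) summed to 5320 to 5491 CPM in controls and 5469 to 6470 CPM in Sms-OE. Sms itself rose in the isolated cells, from 26.9 ± 1.27 to 33.1 ± 0.146 CPM (SD, n = 3; edgeR adjusted p = 0.0382), which does not check the overexpression in the injected cells. Erythroid markers were far higher in Sms-OE replicates 2 and 3 (sums of 5050 and 5014 CPM) than in the other 4 libraries (43.3 to 217 CPM), so these 2 are called haemoglobin-rich below. Of 10 hepatocyte markers 8 fell, and their sum ran from 720 to 895 CPM in controls and from 387 to 591 CPM in Sms-OE. Hepatoma markers summed to 72 to 88.1 CPM in controls and 49.3 to 69.8 CPM in Sms-OE, with Igf2 and Dlk1 at 0 in every library and 2 of 4 tested lower. Neutrophil markers summed to 3426 to 6228 and 2287 to 4237 CPM, with 2 of 9, Mpo and Elane, higher and 0 lower. The median log2 fold change of the 9 was -0.45. T and NK cell markers summed to 293 to 442 and 347 to 485 CPM, B cell markers to 135 to 160 and 108 to 135 CPM, and dendritic cell markers to 70 to 86.2 and 49.2 to 57.3 CPM. Endothelial markers summed to 143 to 159 and 116 to 154 CPM, with 1 of 7 higher and 4 lower (median log2 fold change -0.89). Stellate cell and fibroblast markers summed to 77.1 to 95.7 and 108 to 149 CPM, with 2 of 6 higher. Of the dendritic cell markers 1 of 7 was higher and 3 were lower, of the T and NK cell markers 1 of 8 was higher, and of the macrophage markers 1 of 8 was higher and 1 lower. The part of these cells in the values below was not tested, and in bulk RNA fewer cells of a type and less RNA per cell cannot be told apart.

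Per kilobase of the longest annotated transcript, Malat1 had the highest level of the 7, at 129 CPM per kb in controls and 175 in Sms-OE. Gas5 followed at 41.1 and 46.7 CPM per kb, then Neat1 at 30.7 and 24.3, Tug1 at 16 and 21.8, and Snhg12 at 7.06 and 6.69. Miat (0.0519 and 0.089) and Kcnq1ot1 (0.0421 and 0.0489) were lowest. In controls the ranges of neighbours in this order did not overlap from Malat1 to Snhg12, with Gas5 at 39.5 to 44.2, Neat1 at 26.2 to 33.8 and Tug1 at 15.6 to 16.7 CPM per kb. In Sms-OE those of Neat1 (19.6 to 27.6 CPM per kb) and Tug1 (20.1 to 24.4) overlapped, and the others down to Snhg12 did not. The ranges of Miat (0.0235 to 0.0978 in controls) and Kcnq1ot1 (0.0331 to 0.0502) did overlap. The Kcnq1ot1 length used is that of a 93092-base unspliced transcript, and the Neat1 length that of the long form. For Gas5 it is that of a 2556-base transcript, and shorter forms were not considered. The levels per kb, and with them the order of the 7, depend on these choices. The offsets for length used below take the same lengths. The 7 rows together took 0.168% to 0.178% of a control library's counts and 0.172% to 0.231% of an Sms-OE library's. All 7 passed the low-count filter of the test.

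**Figure D1:**
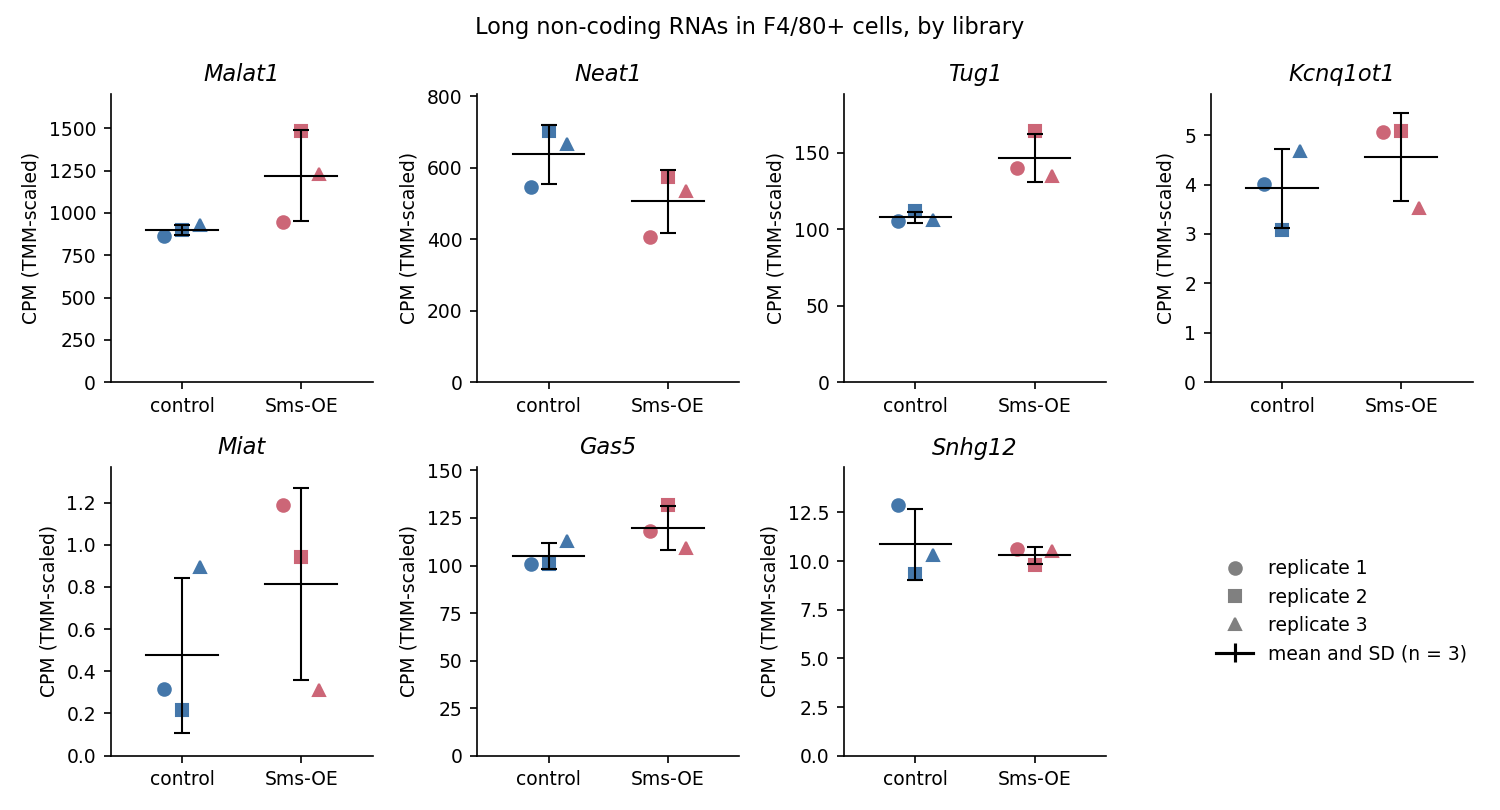
TMM-scaled CPM (y axis, linear, from 0) of each RNA in the 3 control and 3 Sms-OE libraries, with replicates as symbols and bars for the mean and SD. Malat1 and Tug1 lie higher in all 3 Sms-OE libraries than in any control, while Neat1, Kcnq1ot1, Miat, Gas5 and Snhg12 overlap.

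The design has 1 comparison, Sms-OE against control. Tug1 rose, and it was the 1 member of 7 called at an edgeR adjusted p under 0.05. Over all 18277 genes tested 26.9% were called (12.5% higher and 14.3% lower), so 1 call in 7 (14.3%) is not above the share for genes at large. The groups did not overlap for 2 members, Malat1 and Tug1, both with Sms-OE above. Over all genes 44.1% did not overlap, 20.8% with Sms-OE above and 23.3% with it below. The median log2 fold change of the 7 was 0.22, against -0.0006 for all genes tested. 5 members had an estimate above 0 and 2, Neat1 and Snhg12, below.

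**Figure D2:**
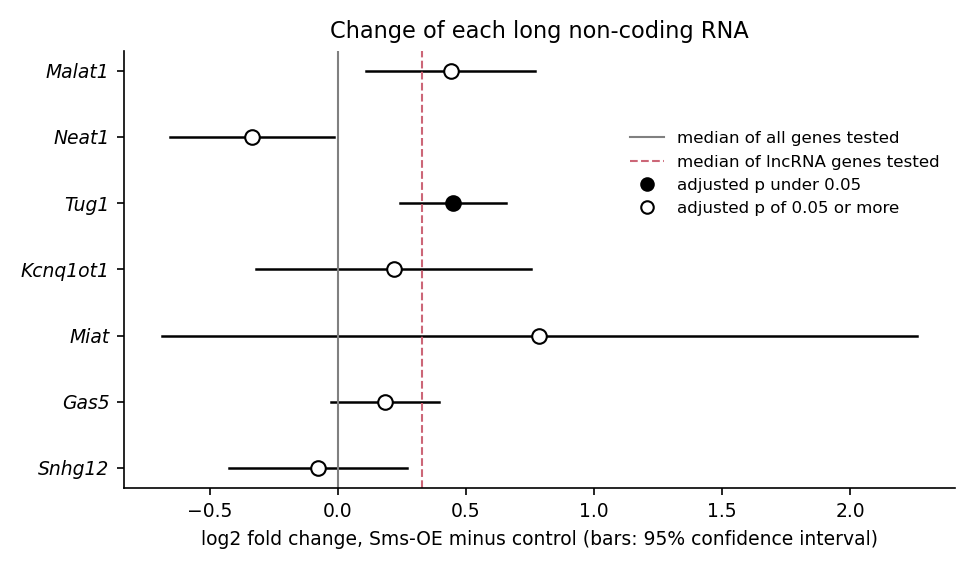
Log2 fold change of each RNA (x axis, Sms-OE minus control, edgeR) with its 95% confidence interval, filled where the adjusted p was under 0.05. Tug1 (0.45) is the filled point; the intervals of Malat1 and Neat1 lie on opposite sides of 0, and that of Miat is the widest, from -0.69 to 2.26.

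Malat1 (ENSMUSG00000092341) lies at chr19:5795690-5802672 on the minus strand and is an intergenic RNA whose longest annotated transcript spans the whole gene, 6983 bases. Control libraries held 866, 900 and 929 CPM, and Sms-OE libraries 947, 1483 and 1228 CPM. All 3 Sms-OE values were above all 3 controls, but replicate 1 by little, and the 2 higher values were those of the haemoglobin-rich libraries. The means were 898 ± 31.5 and 1219 ± 268 CPM (SD, n = 3), a log2 fold change of 0.44 ± 0.15 (SE; 95% interval 0.11 to 0.77). In edgeR the adjusted p was 0.0506, just outside the threshold, and in 10 of 19 alternative settings it was inside. Without both haemoglobin-rich libraries the estimate was 0.07 ± 0.12 (edgeR adjusted p = 0.771). It was 0.27 (edgeR adjusted p = 0.178) without Sms-OE replicate 2 alone. Over the 6 libraries Malat1 took more counts than any other of the 1701 lncRNA genes tested, and Neat1 came next.

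Neat1 (ENSMUSG00000092274) lies beside Malat1 at chr19:5824708-5845478, also on the minus strand. Its levels were 545, 702 and 667 CPM in controls and 407, 574 and 536 CPM in Sms-OE. Replicate 1 was the lowest of its group in both, and control replicate 1 fell within the Sms-OE range, so the groups overlapped. Means of 638 ± 82.1 and 506 ± 87.7 CPM gave a log2 fold change of -0.33 ± 0.14 (95% interval -0.65 to -0.02), which did not pass the test (edgeR adjusted p = 0.114; unadjusted p = 0.0417). With offsets for transcript length and GC content, which took the length of the long form, the estimate moved to -0.85 (edgeR adjusted p = 0.00475). Only 16 tested genes have more than 20000 bases, so this value depends on the length chosen. The estimate was -0.66 without both haemoglobin-rich libraries. It was -0.21 (edgeR adjusted p = 0.278) without Sms-OE replicate 1 and -0.27 (edgeR adjusted p = 0.319) without control replicate 2.

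The ratio of Neat1 to Malat1 within a library does not depend on how libraries are scaled. It was 0.63, 0.779 and 0.718 in control libraries and 0.43, 0.388 and 0.436 in Sms-OE libraries. No library of one group came near the other, and the lowest control lay above the highest Sms-OE value. Sms-OE replicate 1 was at 0.43, between the 2 haemoglobin-rich libraries. Its erythroid marker sum (217 CPM) was far below theirs, but above that of every control (43.3 to 189 CPM). On the log2 scale (prior count of 2) the means were -0.50 ± 0.16 and -1.26 ± 0.09 (SD, n = 3), a difference of -0.76, or 1.69-fold. Leaving out 1 library gave differences of -0.84 to -0.69. The two-sided exact permutation p was 0.1, the smallest that 3 against 3 allows, and 0.2 after adjustment over the 2 ratios compared.

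**Figure D3:**
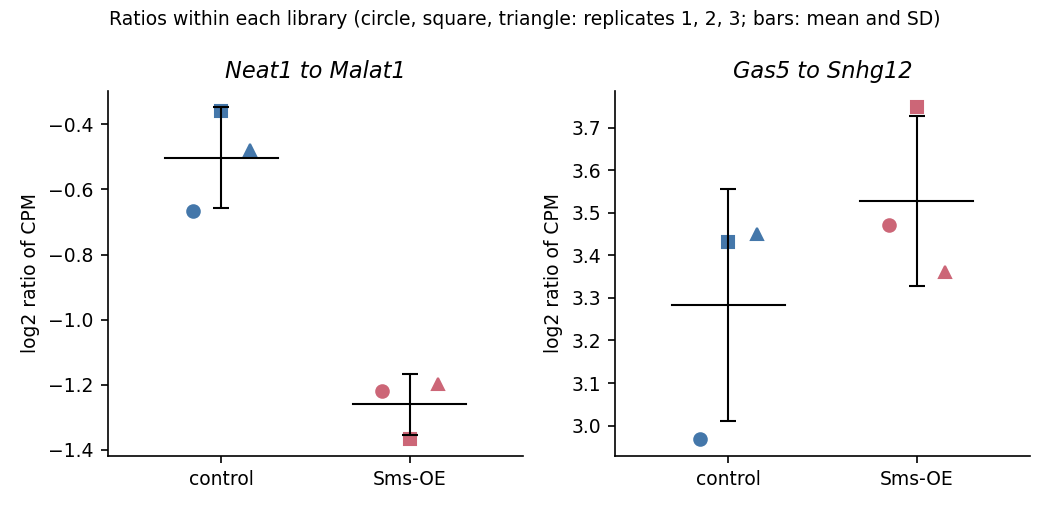
Log2 ratio of CPM (y axis) of Neat1 to Malat1 (left) and of Gas5 to Snhg12 (right) within each library, with replicates as symbols and bars for the mean and SD of 3. The left groups are apart, at -0.67 to -0.36 against -1.37 to -1.20, and the right groups overlap.

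Genes for nuclear speckle proteins, the surroundings of Malat1, were called more often higher than lower. Of 24 tested, 8 rose, 1 fell and 15 did not pass, with a median log2 fold change of 0.18. Over all protein-coding genes tested 14% were called higher and 17.1% lower, the background for this and the protein gene groups below. Srrm2 and Son, the large core proteins of speckles, rose by log2 0.81 ± 0.10 (edgeR adjusted p = 0.000658) and 0.56 ± 0.09 (adjusted p = 0.00253). The splicing factors Srsf6 (0.39) and Sf3b1 (0.39) rose too, and Srsf1, named after its value was seen, fell (-0.27). Leaving out any 1 of the 6 libraries gave 2 to 5 rises, fewest without control replicate 2, and 2 rose without both haemoglobin-rich libraries.

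Genes for paraspeckle proteins, the partners of Neat1, went both ways, as protein-coding genes at large did (14% called higher and 17.1% lower). Of 24 tested, 2 rose, 5 fell and 17 did not pass, with a median of -0.02. Nono, a core protein without which paraspeckles do not form well, fell from 240 ± 8.6 to 183 ± 13.8 CPM (log2 -0.39 ± 0.09; edgeR adjusted p = 0.01). Hnrnpa1 (-0.40), an RNA-binding splicing regulator, fell, as did Nudt21 (-0.44), a subunit of the cleavage factor that steers polyadenylation and so the choice of Neat1 form. Tardbp (-0.28) and Taf15 (-0.31) also fell, and Ss18l1 (0.73) and Cpsf7 (0.29) rose; Tardbp, Taf15 and Cpsf7 are named after their values were seen. Sfpq, the partner of Nono, was at 238 ± 16.3 and 286 ± 11.6 CPM, a log2 difference of 0.27 with an edgeR adjusted p of 0.0512. Leaving out 1 library gave 0 to 3 rises, with 0 without control replicate 1 or 3, and 3 to 5 falls, with 3 without control replicate 3 or Sms-OE replicate 1 or 3. Without both haemoglobin-rich libraries no member was called in either direction. Scaling to library size alone gave 4 rises and 3 falls, and offsets for length and GC 4 and 5.

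Another group makes or binds the 3′ ends printed above: the RNase P proteins, the RNase Z gene Elac2, and Mettl16, which binds the Malat1 triple helix. Of 11 tested, 0 rose, 3 fell and 8 did not pass, with a median of -0.44. At an unadjusted p under 0.05 there were 0 rises and 6 falls in edgeR, and DESeq2 called 0 and 5, limma-voom 0 and 3. Mettl16 fell from 19.7 ± 1.03 to 14.2 ± 0.72 CPM (log2 -0.47 ± 0.11; edgeR adjusted p = 0.0141). Rpp30 (-0.67) and Pop4 (-0.43), protein subunits of RNase P, fell as well. The number of falls was 1 to 6 with 1 library left out, with the fewest when control replicate 2 or Sms-OE replicate 3 was dropped and 6 when Sms-OE replicate 1 was, and 0 when both haemoglobin-rich libraries were. It was 1 with offsets for length and GC (median -0.28) and 1 with scaling to library size alone.

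Tug1 (ENSMUSG00000056579) lies at chr11:3639785-3649673 on the minus strand and is annotated as antisense; its first part overlaps the start of Morc2a on the other strand. Levels were 105, 112 and 106 CPM in control libraries and 140, 164 and 135 CPM in Sms-OE libraries. The controls lay close together, and each Sms-OE library was above all of them. The rise was from 107 ± 3.6 to 147 ± 15.4 CPM, a log2 fold change of 0.45 ± 0.09 (95% interval 0.24 to 0.66; edgeR adjusted p = 0.00679), or 1.36-fold. Leaving out any 1 library kept the call (edgeR adjusted p from 0.012 to 0.0319). Without both haemoglobin-rich libraries the estimate was 0.38. With hepatocyte and hepatoma markers as a covariate it was 0.73 ± 0.32 (edgeR adjusted p = 0.688). The sums of these markers did not overlap between the groups, so that fit cannot tell the covariate from the comparison. Morc2a, whose reads cannot be told from those of Tug1 in the overlap if strand was not used, was at 27.6 ± 3.61 and 28.9 ± 2.8 CPM (edgeR adjusted p = 0.747).

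Kcnq1ot1 (ENSMUSG00000101609) lies at chr7:143203458-143296549 on the minus strand, inside Kcnq1 and antisense to it. Control libraries held 4.01, 3.08 and 4.67 CPM and Sms-OE libraries 5.06, 5.08 and 3.52 CPM, from 172 to 267 counts each. The groups overlapped, since Sms-OE replicate 3 was below control replicates 1 and 3. Its log2 fold change was 0.22 ± 0.24 (95% interval -0.32 to 0.75, edgeR adjusted p = 0.555), and -0.39 with offsets for length and GC, which used the 93092-base transcript. With 1 library left out it ran from 0.058, without control replicate 2, to 0.37, without Sms-OE replicate 3. Kcnq1, a potassium channel gene, had 83 counts in all 6 libraries together, so its own level was near 0.

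In the imprinted region around Kcnq1ot1, 16 of 20 listed genes were tested: 0 rose, 3 fell and 13 did not pass, with a median of -0.31. At an unadjusted p under 0.05 edgeR gave 0 rises and 5 falls, and DESeq2 called 0 and 4, limma-voom 0 and 5. Cd81, a tetraspanin gene, fell from 91.2 ± 8.56 to 62.6 ± 7.66 CPM (log2 -0.54 ± 0.11; edgeR adjusted p = 0.00588). Dhcr7 (-1.07), the last enzyme of cholesterol synthesis, and Slc22a18 (-1.15), a transporter gene at 1.56 ± 0.267 and 0.701 ± 0.0592 CPM, fell too. From 2 to 5 fell when 1 library was left out (5 without Sms-OE replicate 2), and 1 when both haemoglobin-rich libraries were. With offsets for length and GC 1 fell, and the median was -0.18. Of the genes that Kcnq1ot1 silences in other tissues, Cdkn1c, a cell cycle inhibitor, was at 0.848 ± 0.247 and 0.868 ± 0.484 CPM, and Phlda2, a placental growth regulator, had no count in the controls and 7, 4 and 0 counts in Sms-OE.

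Of the PRC2 and G9a genes, which act with Kcnq1ot1 and have been linked to Tug1, 13 were tested: 2 rose, 3 fell and 8 did not pass, with a median of 0.03. The histone-binding subunits Rbbp7 (log2 -0.41 ± 0.09; edgeR adjusted p = 0.00865) and Rbbp4 (-0.35) fell, as did Phf19 (-0.68), which recruits the complex. Suz12 (0.28), a core subunit, rose, and so did Jarid2 (0.32), an accessory subunit named after its value was seen. Without both haemoglobin-rich libraries no member was called, and with 1 library left out 0 to 3 rose and 2 to 3 fell; 0 rose in every such fit but the one without Sms-OE replicate 2. Scaling to library size alone gave 1 rise and 1 fall, and no low-count filter 0 and 3.

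Miat (ENSMUSG00000097767) lies at chr5:112213228-112229395 on the minus strand and was the scarcest of the 7 in counts. Control libraries held 19, 12 and 43 counts (0.317, 0.215 and 0.896 CPM) and Sms-OE libraries 63, 47 and 16 (1.19, 0.944 and 0.309 CPM). Replicate 3 was the highest of the controls and the lowest of the Sms-OE libraries, so the groups overlapped. The log2 fold change of 0.79 ± 0.66 had a 95% interval from -0.69 to 2.26 (edgeR adjusted p = 0.426). A change of the size of that of Tug1 lies inside this interval in both directions. The estimate ran, with 1 library left out, from 0.40, without Sms-OE replicate 1, to 1.59, without control replicate 3 (edgeR adjusted p = 0.147). It was 0.38 with offsets for length and GC and 1.33 without both haemoglobin-rich libraries.

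Gas5 (ENSMUSG00000053332) and Snhg12 (ENSMUSG00000086290) are shown with their start sites because RNAs of snoRNA hosts begin with a pyrimidine tract, the 5′ TOP element, as ribosomal protein mRNAs do. Capitals mark TATATA and CCTTTC in windows of 110 bases around the annotated start, chr1:161035106-161035215 for Gas5 and chr4:132308618-132308727 for Snhg12, both on the plus strand (RefSeq, GRCm38.p6).

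Gas5 start: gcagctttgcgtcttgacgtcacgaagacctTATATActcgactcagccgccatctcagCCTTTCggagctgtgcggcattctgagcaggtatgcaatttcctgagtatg
Snhg12 start: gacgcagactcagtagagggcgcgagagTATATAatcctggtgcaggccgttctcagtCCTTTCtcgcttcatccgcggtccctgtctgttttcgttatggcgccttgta

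The windows were picked as those of the 2 genes that hold TATATA, so its presence was fixed by the choice. TATATA begins 29 bases before the RefSeq start of Gas5 (161035166) and 32 before that of Snhg12 (132308678). CCTTTC begins 1 and 2 bases before these starts. The GENCODE spans of the 2 genes begin further upstream, at 161034422 and 132308623, so both motifs lie inside them. On either strand, TATATA is in 5.67% and CCTTTC in 23.8% of 32851 RefSeq windows of 300 bases around start sites. On the gene's strand, TATATA within 35 to 16 bases before the start together with CCTTTC from 5 before to 6 after it, positions chosen after these 2 genes were seen, is in 5 windows (0.0152%). Of the 7 members 6 matched a window, Neat1 being the other one, and no other member had TATATA or CCTTTC. A match is a description of letters and not a measured site.

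Gas5 lies at chr1:161034422-161038539 on the plus strand, and its levels were 101, 101 and 113 CPM in controls and 118, 132 and 109 CPM in Sms-OE. The groups overlapped, because Sms-OE replicate 3 was below control replicate 3. Means were 105 ± 6.77 and 119 ± 11.7 CPM, a log2 fold change of 0.18 ± 0.10 (95% interval -0.03 to 0.39; edgeR adjusted p = 0.19). With offsets for length and GC it was 0.37 (edgeR adjusted p = 0.0118), and with 1 library left out it ran from 0.096, without Sms-OE replicate 2, to 0.24, without Sms-OE replicate 3. Its annotated 5′ part overlaps Zbtb37 on the other strand, a zinc finger gene that rose from 16.2 ± 0.855 to 22.3 ± 1.41 CPM (edgeR adjusted p = 0.014).

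Snhg12 lies at chr4:132308623-132311024 on the plus strand and held 12.9, 9.36 and 10.3 CPM in controls and 10.6, 9.78 and 10.5 CPM in Sms-OE. All 3 Sms-OE libraries lay within the range of the controls. Its log2 fold change was -0.08 ± 0.16 (95% interval -0.43 to 0.27; edgeR adjusted p = 0.76). The estimate was 0.22 with offsets for length and GC and 0.059 without control replicate 1, so its sign depended on the setting. The ratio of Gas5 to Snhg12 within a library was 7.83, 10.8 and 10.9 in controls and 11.1, 13.4 and 10.3 in Sms-OE. Control replicate 1 was the lowest of the 6, and the groups overlapped. The log2 difference of 0.24 (two-sided exact permutation p = 0.4, and 0.4 after adjustment over the 2 ratios) ran from 0.09 to 0.33 with 1 library left out.

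The snoRNAs that these 2 hosts carry were not measured by these libraries. Annotation places 15 snoRNA rows inside them, 10 in Gas5 and 5 in Snhg12. Of the 15, 13 held the value 1 in every library and the highest value was 4, so none was tested. Of 12 other snoRNA hosts tested, 0 rose and 0 fell in edgeR, with a median of 0.00. At an unadjusted p under 0.05, 2 were higher and 1 was lower, and DESeq2 and limma-voom each called 0 in both directions. Snhg1 was at 38.4 ± 1.43 and 35.5 ± 2.32 CPM (edgeR adjusted p = 0.425) and Zfas1 at 29.3 ± 3.64 and 31.7 ± 3.73 CPM (edgeR adjusted p = 0.547). With offsets for length and GC, 4 of the 12 were called higher.

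Spliced snoRNA host RNAs are known targets of nonsense-mediated decay, the pathway that degrades RNAs with early stop codons. Of 20 of its factors tested, 4 rose, 1 fell and 15 did not pass, with a median of 0.07. Smg1, the kinase of the pathway, rose from 147 ± 5.43 to 238 ± 14.1 CPM (log2 0.69 ± 0.09; edgeR adjusted p = 0.000658). Smg6 (0.54), the endonuclease, and Upf1 (0.31), the central helicase, rose as well. Dcp2 (-0.30), a decapping enzyme named after its value was seen, fell. The rises numbered 2 to 5 with 1 library left out, with 2 without control replicate 2 or 3 or Sms-OE replicate 1 or 3, and 1 without both haemoglobin-rich libraries. There were 2 with offsets for length and GC.

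Gas5 RNA has been described as a decoy that binds the glucocorticoid receptor in place of DNA. Of 15 genes tested (the receptor gene Nr3c1 and its known targets), 9 rose, 1 fell and 5 did not pass, with a median of 0.35. Nr3c1 itself rose from 92.2 ± 3.99 to 133 ± 6.23 CPM (log2 0.53 ± 0.08; edgeR adjusted p = 0.00157). Among the targets, the kinase Sgk1 (0.67), the decoy receptor Il1r2 (0.60) and the haemoglobin scavenger receptor Cd163 (2.24) rose, and Mt1 (-0.34), a metallothionein named after its value was seen, fell. Cd163 was at 2.12, 1.29 and 1.98 CPM in controls and 5.65, 14 and 5.82 CPM in Sms-OE, highest in replicate 2. Replicates 2 and 3 are the haemoglobin-rich libraries. Erythroid markers of replicate 1 (217 CPM) were also above those of the controls (43.3 to 189 CPM). Whether haemoglobin bears on Cd163 was not tested. The rises numbered 5 to 8 with 1 library left out, fewest without Sms-OE replicate 2, and 5 rose without both haemoglobin-rich libraries.

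Among all lncRNA genes the 7 were not at the extremes. The table held 9911 lncRNA genes of GENCODE M21, of which 1701 were tested: 11.8% were called, 9.88% higher and 1.88% lower, with a median log2 fold change of 0.33. The groups did not overlap for 29% of them, with Sms-OE above for 23.4% and below for 5.64%. The median was 0.24 to 0.59 over all settings run, while that of all genes was -0.0006 (-0.03 for protein-coding genes). For lncRNA genes with a mean of at least 5 CPM it was 0.26, with 27.5% of 193 called higher and 6.22% lower. Tug1 had 728 lncRNA genes above it in log2 fold change and Malat1 734. Kcnq1ot1 had 973 above it, Gas5 1013, Snhg12 1220 and Miat 460. Neat1 was nearest to the lower end, with 1411 lncRNA genes above it and 289 below.

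**Figure D4:**
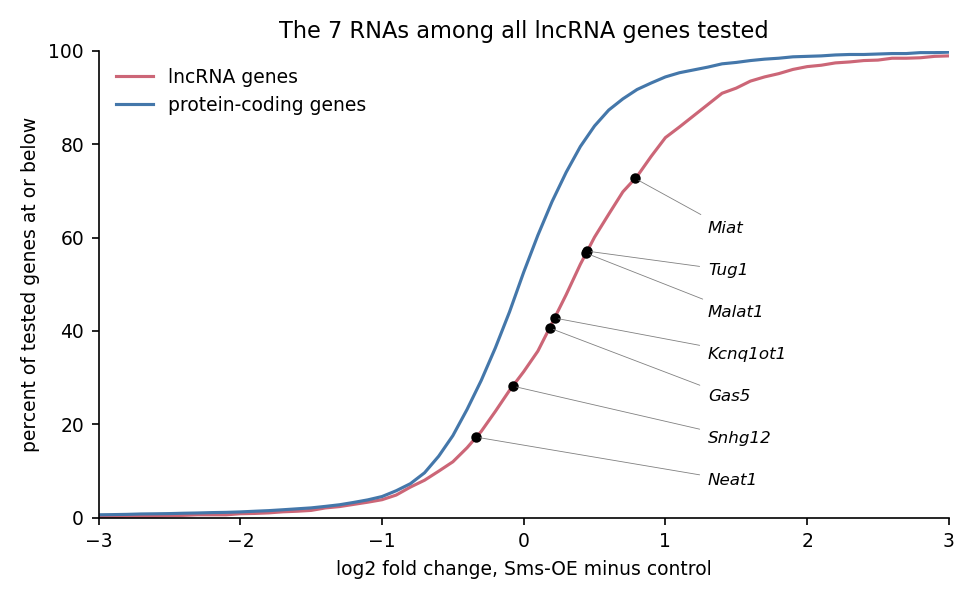
Percent of tested genes (y axis) at or below each log2 fold change (x axis, Sms-OE minus control) for lncRNA and protein-coding genes, with the 7 RNAs as points on the lncRNA curve. The lncRNA curve (median 0.33) lies to the right of the protein-coding curve (median -0.03), and the 7 points spread over its middle from Neat1 to Miat.

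Other well known lncRNAs give the setting. Of 34 listed 30 were tested: 3 rose, 2 fell and 25 did not pass, with a median of 0.29. Mirt1 (0.63 ± 0.08; edgeR adjusted p = 0.00081) and Mirt2 (0.84 ± 0.17; edgeR adjusted p = 0.00699), first described in the infarcted heart, rose, Mirt1 from 109 ± 2.21 to 169 ± 10.4 CPM. Mir22hg (0.52), host of the microRNA miR-22, rose too. Bvht (-1.09) fell from 3.6 ± 0.47 to 1.7 ± 0.459 CPM, and AW112010 (-0.42), an interferon-induced RNA of immune cells named after its value was seen, fell with an edgeR adjusted p of 0.0497. With 1 library left out 2 to 6 rose, most without Sms-OE replicate 1, and 0 to 2 fell, with 0 without control replicate 2. Without both haemoglobin-rich libraries 1 rose and 0 fell, and with offsets for length and GC or scaling to library size alone 6 rose.

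Over all genes, transcript length moved with the comparison. Of 2798 tested genes whose longest transcript has more than 5000 and up to 10000 bases, 799 were called higher and 180 lower, with a median of 0.22. Of 3469 genes with more than 1000 and up to 2000 bases, 237 were higher and 747 lower, with a median of -0.14. Malat1 (6983 bases), Tug1 (6719) and Miat (9163) are in the first of these bins and Snhg12 (1538) in the second. Among lncRNA genes alone the medians of these bins were 0.38 (51 genes, 10 higher and 1 lower) and 0.34 (477 genes, 52 higher and 5 lower). With offsets that remove the trend with length and GC, Tug1 stayed called at 0.32 ± 0.09 (edgeR adjusted p = 0.0357), and Malat1 was at 0.25 ± 0.16 (edgeR adjusted p = 0.287). The lncRNA median was 0.59 in that fit. RNAs without a poly(A) tail, which oligo(dT) beads should not hold, gave 4 tested genes of 12, with 0 called in either direction in edgeR. At an unadjusted p under 0.05, 1 was higher and 2 were lower, DESeq2 called 1 higher and limma-voom 0. The 2 copies of the 7SL RNA, Rn7s1 and Rn7s2, near-identical copies between which reads could be split, were at 8.13 ± 5.94 and 8.15 ± 5.98 CPM in controls and at 3.06 ± 1.64 and 3.06 ± 1.55 CPM in Sms-OE.

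Protein-coding neighbours of the 7 moved in both directions, as protein-coding genes at large did (14% called higher and 17.1% lower). Taking 3 on each side of each member gave 36 genes, of which 30 were tested: 4 rose, 7 fell and 19 did not pass, with a median of -0.03. Near Malat1 and Neat1, Frmd8, whose annotated span begins 4224 bases beyond that of Neat1, was at 66.5 ± 1.3 and 68.7 ± 12.9 CPM (edgeR adjusted p = 0.822), while Tigd3 (1.14) rose. Near Gas5, Rc3h1 (0.44), which encodes the RNA-binding protein Roquin, and Rabgap1l (0.48) rose, while Klhl20 (-0.57) and Serpinc1 (-2.71), the antithrombin gene of hepatocytes, fell. Serpinc1 was at 16.2 ± 4.06 and 2.48 ± 1.07 CPM, and it fell together with the hepatocyte markers given above. Near Snhg12, Taf12 (-0.37), Trnau1ap (-0.46) and Rcc1 (-0.49) fell and Phactr4 (0.51) rose. Cd81 and Slc22a18, given above, are the other 2 that fell. Of these neighbours Serpinc1, Cd81, Klhl20 and Rc3h1 had the smallest p, and the rest are named after their values were seen. With 1 library left out 1 to 3 neighbours rose (1 without control replicate 1 or Sms-OE replicate 3) and 3 to 8 fell (3 without control replicate 2 or Sms-OE replicate 3), and 0 and 1 without both haemoglobin-rich libraries. Offsets for length and GC gave 3 rises and 2 falls, and scaling to library size alone 4 and 4.

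The profiles of the 7 over the 6 libraries differed from each other. Likeness was measured as the root-mean-square distance between log2 CPM profiles centred on their means. The closest members were Malat1 and Tug1 (0.146) and Tug1 and Gas5 (0.149), while Malat1 and Neat1, neighbours in the genome, were 0.394 apart and Neat1 and Miat, the most distant, 1.027. The genes ranked were 9639 tested ones with a mean of at least 5 CPM. Genes named by a Gm or AC number, names ending in Rik and ribosomal protein pseudogenes were left out, some lncRNA genes among them. Of those ranked, the closest to Malat1 were Ankrd37 (0.052), Nfkbib (0.061) and Tfdp2 (0.066). Closest to Neat1 were Wars (0.047), D17H6S53E (0.061) and Nt5m (0.071). Tug1 was nearest to Smim14 (0.035), Chic2 (0.036) and Ets2 (0.037), and Gas5 to Bcl2l13 (0.02), Ginm1 (0.024) and Zmym5 (0.024). The nearest to Snhg12 were Dnaaf2 (0.044), Rabep1 (0.047) and AI467606 (0.054), and to Kcnq1ot1 they were Krt8 (0.078), Zfp53 (0.113) and AA467197 (0.117). Miat had no close match, with Wfdc21 (0.494), Lcn2 (0.532) and H2-Ke6 (0.548) nearest. These are the smallest of many distances over 6 libraries and carry no test.

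**Figure D5:**
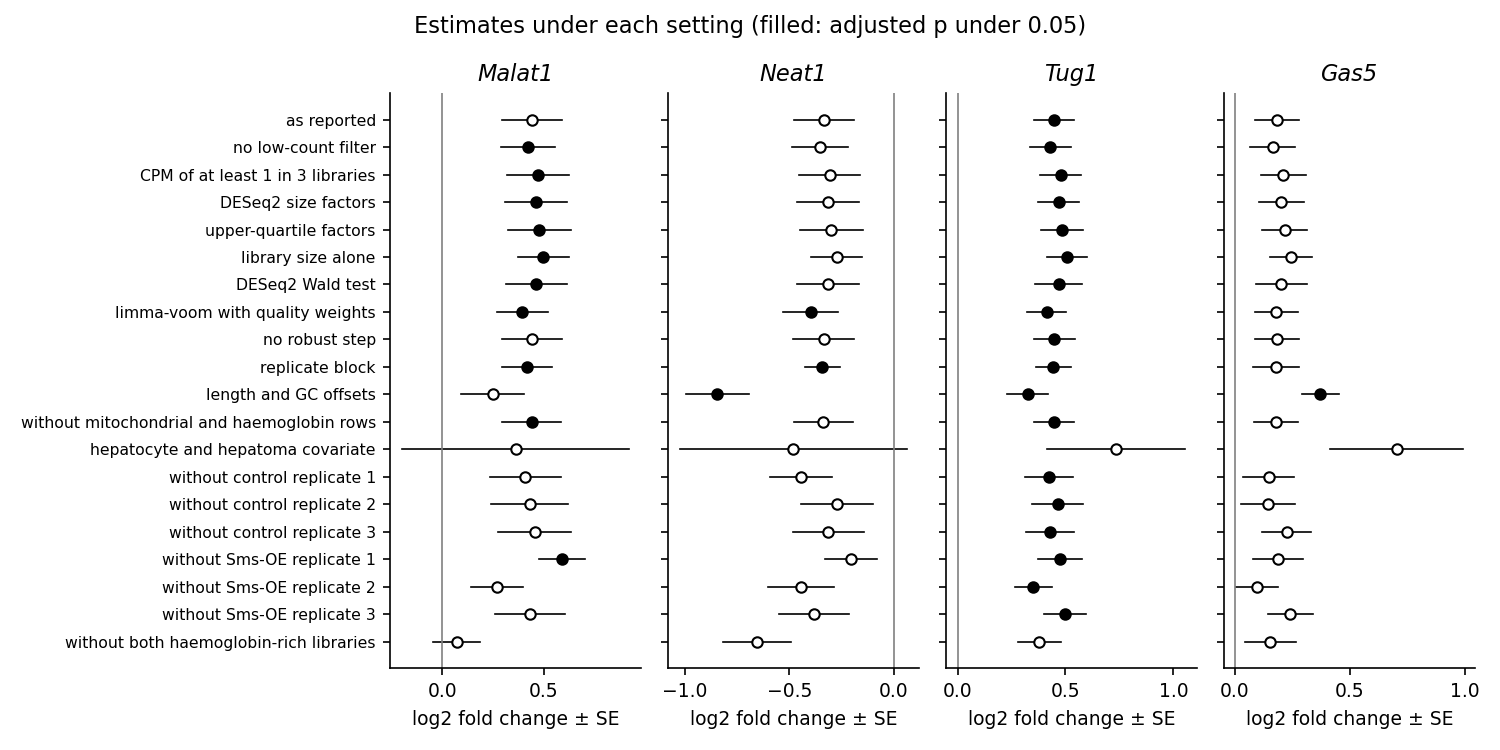
Log2 fold change with its SE (x axis) of Malat1, Neat1, Tug1 and Gas5 under the reported setting and each alternative (rows), filled where the adjusted p was under 0.05. Tug1 is filled in every row but the covariate and the removal of both haemoglobin-rich libraries; Malat1 is at 0.07 in the last row.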

How the data were processed

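RNA was measured in 6 libraries of F4/80+ cells, 3 control and 3 Sms-OE; groups and replicate numbers came from the titles. Per the labels' protocols, RNA was selected on oligo(dT) beads and fragmented, and the second strand was made with dUTP and digested with UDG. Per the submitters' processing notes, they used DESeq2, StringTie 2.1.6, HISAT2 2.2.1, cutadapt 1.9 and FastQC 0.11.9. Which genome, gene models and strand option were used is not given in the sources used here, so a gene and its antisense partner cannot be told apart with certainty. The deposited values are estimated counts per gene, as whole numbers, not normalized.

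Symbols and coordinates came from GENCODE M21 (GRCm38) by gene identifier and were found for 55141 rows; 260 had none, at most 0.0125% of any library. An lncRNA gene is one in the GENCODE long non-coding set, without the type TEC. The set was taken as annotated, and rows named Ifi30 (429 CPM) and Cct6a (105 CPM) are among its highest. Whether genes of the set are translated was not tested. Libraries of a group were not copies of each other: identical counts were found for at most 17.3% of genes. The test was edgeR 4.0.16 (R 4.3.3): filterByExpr, TMM factors (0.9311 to 1.054), glmQLFit with its robust option, then glmQLFTest. P-values were adjusted by Benjamini-Hochberg over all 18277 genes that passed the filter, and 0.05 was the threshold. Each log2 fold change is Sms-OE minus control, with its SE taken from the F statistic. Ratios were compared by exact permutation over 20 assignments. The fit across genes was first tried on simulated counts.

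For each list the text names the called members with the smallest p, up to 4, or where none was called the 2 with the highest CPM; others are said to be named after their values were seen, and some items are not reported here. Members, lists and markers were chosen with earlier results of these data known. In the lists, Snhg4 and Snhg7 were not matched, and Snhg16, Norad, Oip5os1 and Chaserr were matched through RefSeq synonyms. Alternatives were other filters, scalings and tests (DESeq2 1.42.0, limma 3.58.1), the replicate number as a block, a hepatocyte and hepatoma marker covariate, offsets for length and GC, a table without mitochondrial and haemoglobin rows, a threshold of 0.01, and each library left out. Removal of both haemoglobin-rich libraries was added after seeing the data; it leaves 1 Sms-OE library, which is assumed to vary like the others.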

Additional observations from a re-analysis of the deposited data

How the results depend on the processing

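Tug1 kept its direction in 19 of 19 alternatives and its call in 17; it was 0.73 with the hepatocyte and hepatoma covariate and 0.38 without both haemoglobin-rich libraries. Malat1 passed the threshold without the low-count filter (0.42), with a CPM of at least 1 in 3 libraries (0.47), with DESeq2 size factors (0.46), upper-quartile factors (0.48) or library size alone (0.50), with the DESeq2 Wald test (0.46), with limma-voom (0.39), without mitochondrial and haemoglobin rows (0.44), and with the replicate number as a block (0.42). With 1 library left out it ran from 0.27 to 0.59, the latter past the threshold without Sms-OE replicate 1. Neat1 passed with limma-voom (-0.40), with the replicate block (-0.34) and with length and GC offsets (-0.85), which took the length of its long form. The offsets also took Gas5 to 0.37, past the threshold, and turned Kcnq1ot1 to -0.39 and Snhg12 to 0.22. With 1 library left out Snhg12 ran from -0.18 to 0.059, the latter without control replicate 1. With the covariate Neat1 was -0.48, Kcnq1ot1 1.53, Miat 5.99, Gas5 0.70 and Snhg12 -0.41, none past the threshold. The cause of these changes was not tested. The 2 ratios kept their direction in 7 of 7 alternatives each.

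Over all genes, 2293 were higher and 2615 lower. A threshold of 0.01 gave 1077 and 1219, and removal of both haemoglobin-rich libraries 690 and 694. The covariate, whose marker sums did not overlap between the groups, gave 0 and 0 in edgeR (735 and 593 at an unadjusted p under 0.05). That fit cannot tell the covariate from the comparison. The DESeq2 Wald test gave 2773 and 2840. Library size alone split the calls into 2521 higher and 1788 lower. With 1 library left out there were 1366 to 2015 higher and 1684 to 2473 lower. Whether the replicate numbers pair the samples is not known. Deviations of same-numbered libraries from their group means correlated at 0.065, 0.02 and -0.008, and those of libraries with unlike numbers at -0.066 to 0.044. As a block the replicate numbers gave 2117 higher and 2415 lower.

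Among the gene groups, the block changed the counts of speckle genes that rose from 8 to 5 and of other lncRNAs that rose from 3 to 5. PRC2 and G9a genes that rose went from 2 to 1. Decay factors went from 4 to 3 rises and glucocorticoid receptor genes from 9 to 8, both from 1 fall to 0. Paraspeckle genes went from 2 to 3 rises and from 5 to 4 falls, and the RNase P group from 3 to 4 falls. Neighbours went from 4 to 3 rises and from 7 to 6 falls.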

Other observations

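Genes of type TEC, which GENCODE holds as loci that still need an experimental check, had a median log2 fold change of 0.65 over 621 tested, with 15% called higher and 1.29% lower in edgeR. The lncRNA genes counted above can be divided by type. Sense intronic ones, which lie inside the introns of other genes, had a median of 0.59 over 80 tested, with 16.2% called higher and 0% lower (13 and 0 genes). Antisense lncRNA genes were at 0.35 (672 tested), intergenic ones at 0.34 (594), processed transcripts, the type of Gas5, at 0.23 (284) and those of bidirectional promoters at 0.23 (66). All lncRNA genes together took 0.778% to 0.817% of a control library's counts and 0.886% to 0.982% of an Sms-OE library's. Mitochondrial genes took 4.99% to 7.13% and 2.15% to 3.12%.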
